A study of Mus musculus with 12 samples.

Results

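Cardiomyocytes of newborn mice that had received N-acetylcysteine (NAC) were compared after myocardial infarction (MI) and after a sham operation. The comparison took the libraries whose labels give NAC together with MI or with sham surgery, 3 of each, which is 6 of the 12 libraries of the study. All animals were wild type. Pups of both groups were injected daily from postnatal day 0 to 1 with NAC at a dose the labels call high, in saline buffered with 25 mM HEPES and 140 mM NaCl. On day 2 the left anterior descending coronary artery was occluded (NAC MI) or a sham procedure was done (NAC sham), and the cells were collected on day 3. The other 6 libraries had the same surgeries after saline without NAC (saline sham and saline MI, 3 each), and they enter below where the test needs them or where a value after saline is set beside one after NAC. Cardiomyocytes were selected with a kit from digested ventricles of pooled hearts, so a library stands for a pool of animals and not for 1 heart. The sample labels speak of left ventricular tissue and the series text of whole ventricles. Libraries are numbered in the order of deposit, and the numbers pair nothing.

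Occlusion of the coronary artery starves part of the ventricle of blood, and within a day surviving cardiomyocytes switch on fetal and stress genes, neutrophils and monocytes enter the tissue, and fibroblasts and the epicardium, the mesothelial covering of the heart, are activated. NAC is a thiol that supplies cysteine for the synthesis of glutathione, the main soluble antioxidant of cells. The newborn mouse heart can still replace lost cardiomyocytes for a short time after birth, which is why injury is often studied at this age. The question put by the design is what infarction changes in such cells when the pups have had the antioxidant.

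The promoters of 4 genes that rose after MI are shown because each holds a match to the AP-1 motif or the CArG box. The stretches are the 250 bases before the RefSeq start of each gene on GRCm38.p6, read on the gene's own strand from 5′ to 3′, and capitals mark matches to the AP-1 motif TGANTCA, the TATA box TATAAA or the CArG box. Sprr1a is on the minus strand at chr3:92485882-92486131, Olr1 on the minus strand at chr6:129507166-129507415, Mirt1 on the minus strand at chr19:53464797-53465046 and Acta1 on the minus strand at chr8:123894776-123895025.
Sprr1a: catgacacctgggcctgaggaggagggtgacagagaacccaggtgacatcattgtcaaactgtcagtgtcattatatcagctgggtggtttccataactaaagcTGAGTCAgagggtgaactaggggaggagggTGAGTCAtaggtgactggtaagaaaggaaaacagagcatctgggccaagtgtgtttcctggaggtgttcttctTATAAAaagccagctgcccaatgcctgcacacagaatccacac
Olr1: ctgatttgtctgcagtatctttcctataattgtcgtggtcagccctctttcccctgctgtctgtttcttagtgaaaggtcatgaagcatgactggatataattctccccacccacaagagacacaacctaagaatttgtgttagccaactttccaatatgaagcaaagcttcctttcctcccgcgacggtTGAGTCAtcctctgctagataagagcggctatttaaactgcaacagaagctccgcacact
Mirt1: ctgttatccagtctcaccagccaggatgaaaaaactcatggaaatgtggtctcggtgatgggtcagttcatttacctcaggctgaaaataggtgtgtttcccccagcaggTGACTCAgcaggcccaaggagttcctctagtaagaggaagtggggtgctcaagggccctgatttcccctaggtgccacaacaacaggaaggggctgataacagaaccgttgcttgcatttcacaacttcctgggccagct
Acta1: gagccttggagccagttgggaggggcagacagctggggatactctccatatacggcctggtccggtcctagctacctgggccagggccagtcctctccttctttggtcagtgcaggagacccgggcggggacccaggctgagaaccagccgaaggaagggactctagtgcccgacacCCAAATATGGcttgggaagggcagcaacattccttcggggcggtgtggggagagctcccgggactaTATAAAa
Sprr1a held 2 AP-1 matches, which began 146 and 116 bases before the start, and a TATA box 43 bases before it. Olr1 held an AP-1 match at 60 bases and Mirt1 at 140 bases. Acta1, a classical target of serum response factor, held a CArG box that began 73 bases before the start and a TATAAA match 7 bases before it. All these distances are from the RefSeq start, which lay 24 bases from the annotated gene start in Acta1 and 14 bases in Sprr1a. Both strands were searched. Of the 19 called genes, 14 had a promoter entry, and AP-1 was found in 3 of these 14 (21.4%) and in 4.34% of the 10974 promoters of tested genes. The CArG box was found in 2 of 14 (Acta1 and 4833412C05Rik) against 1.15%, and TATAAA in 2 of 14 (Acta1 and Sprr1a) against 6.73%. The C/EBP motif TTNNGNAA was found in 5 of 14 against 28.3%, the NF-kB motif in 3 of 14 against 6.0%, and the STAT motif TTCNNNGAA in 1 of 14 against 5.90%. The antioxidant response element, searched as TGANNNNGC, was found in 3 of 14 against 36.7%, and this motif can overlap an AP-1 match, as it did in Mirt1 and Sprr1a. For a called gene the RefSeq entry nearest the annotated gene start was taken, and for the tested genes the entry with the lowest coordinate. The shares thus rest on promoters chosen in different ways. The entries of Emb and Il1r2 lay 12037 and 12014 bases from the annotated gene start. Those of 4833412C05Rik, Ptprn and Krt8 lay 643, 294 and 140 bases from it. The stretches of Emb, Il1r2, 4833412C05Rik and Ptprn lay wholly inside the annotated genes, and that of 4833412C05Rik holds 1 of the 2 CArG boxes. A match is only a match of letters, and none of these shares was tested.

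Values are normalized read counts, that is, reads per gene divided by a size factor per library. The NAC libraries held 14353842 to 17796632 reads. The 14 cardiomyocyte markers had the highest mean level of any marker list in all 6 libraries. This ranking does not measure the purity of the selected cells. In NAC sham 2 the cardiomyocyte score was 13.3 and the endothelial score 12.3. NAC sham 2 and NAC MI 2 stood apart. The macrophage and monocyte score, the mean log2(value + 1) of 19 markers, was 6.37, 8.65 and 5.97 in NAC sham 1 to 3 and 8.90, 5.74 and 8.6 in NAC MI 1 to 3. NAC MI 2 was the lowest NAC MI library for 19 of 19 of these markers, and NAC sham 2 the highest sham library for 14 of 19. NAC sham 2 was also the lowest sham library for 14 of 14 cardiomyocyte markers. Many results that rest on these libraries are given below with both and without both, and the others with both only. The libraries were picked by macrophage markers, so the fit without both favours a rise of macrophage genes and of genes that vary with them. Pools also differed in sex. The Y-linked genes Ddx3y, Eif2s3y, Kdm5d and Uty, chosen after their values were seen, together had 0 reads in NAC MI 1 and 2 and 1919 in NAC MI 3, with 901, 1552 and 2390 in the sham libraries. Xist, the RNA of the inactive X chromosome, was at 8841 and 8953 in NAC MI 1 and 2, at 0 in NAC MI 3 and between 5965 and 8634 in the sham libraries. Sham pools thus held transcripts of both sexes and each MI pool of 1 sex. Without NAC MI 3, 14 of the 19 genes described below were still called. That fit cannot separate sex from surgery, because NAC MI 1 and 2 had no Y-linked reads and every sham library had them. Title prefixes of unstated meaning differed as well: R235 on NAC MI 1 and 2, R230 on NAC MI 3, R207 on NAC sham 2 and none on NAC sham 1 and 3. Saline libraries shared them in part, with R207 on saline sham 1 and 2, R230 on saline MI 1 and 2, R235 on saline MI 3, and R219 on saline sham 3. No prefix held both surgeries, so prefix and surgery cannot be told apart. Mitochondrial transcripts took 19.4 ± 4.90% of the sham reads and 25.7 ± 3.48% of the MI reads (SD, n = 3, exact permutation p = 0.2, two-sided), and globin took 1.65 ± 0.893% and 2.14 ± 0.685% (exact permutation p = 0.5). With 3 libraries against 3 the smallest p such a test can give is 0.1.

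**Figure D1:**
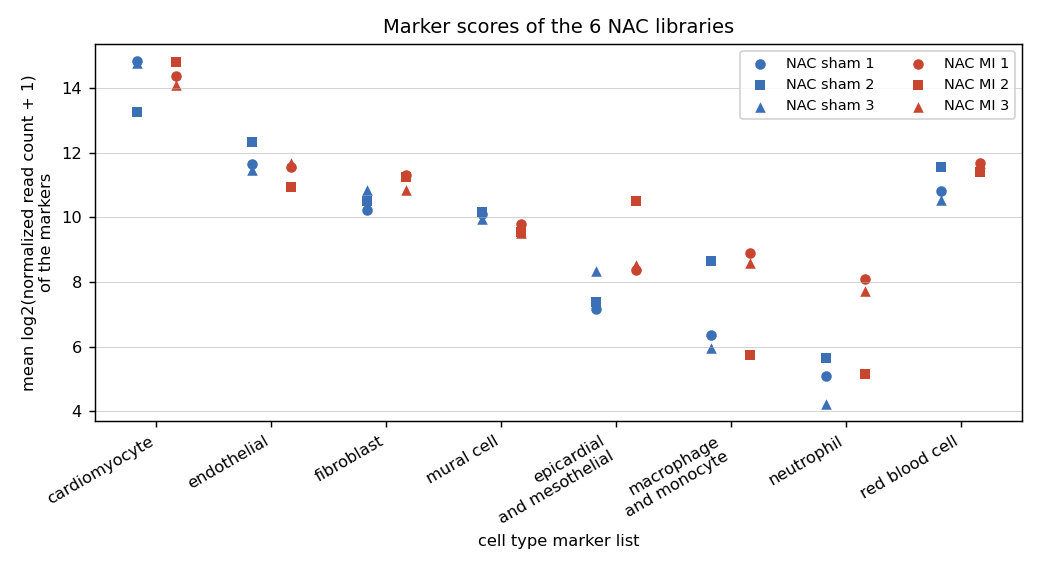
Marker scores of the 6 NAC libraries. Each point is the mean log2(normalized read count + 1) of the measured markers of a cell type in 1 library, blue for NAC sham and red for NAC MI, with circles, squares and triangles for libraries 1, 2 and 3. The squares stand apart: NAC sham 2 has a macrophage score of 8.65 and NAC MI 2 of 5.74, the reverse of the other libraries of their groups, and NAC MI 2 has the highest epicardial score (10.5).

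Infarction after NAC was accompanied by higher transcripts of a small set of stress, epithelial, acute-phase and inflammatory genes. Of 14996 genes tested, 19 passed and all 19 were higher in NAC MI. They ranged from Trf (log2 difference 1.56) to Sprr1a (8.97), and 17 were protein coding and 2 long intergenic noncoding RNAs. The test was limma on log2(value + 1), 2-sided, with p-values adjusted by the Benjamini-Hochberg method, and genes with an adjusted p under 0.05 are said to have been called (0.127% of genes tested). No gene was called lower in this fit, in which 732 genes were lower at an unadjusted p under 0.05 (4.88%) and 767 higher (5.11%). In the edgeR quasi-likelihood test 1 gene was called lower and in DESeq2 65, both on recovered reads. In all 19 called genes every NAC MI library was above every NAC sham library, a pattern that 9.08% of all genes showed by themselves, while 9.96% showed the reverse. The largest value was in NAC MI 1 in 3 of the 19, in NAC MI 2 in 11 and in NAC MI 3 in 5.

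**Figure D2:**
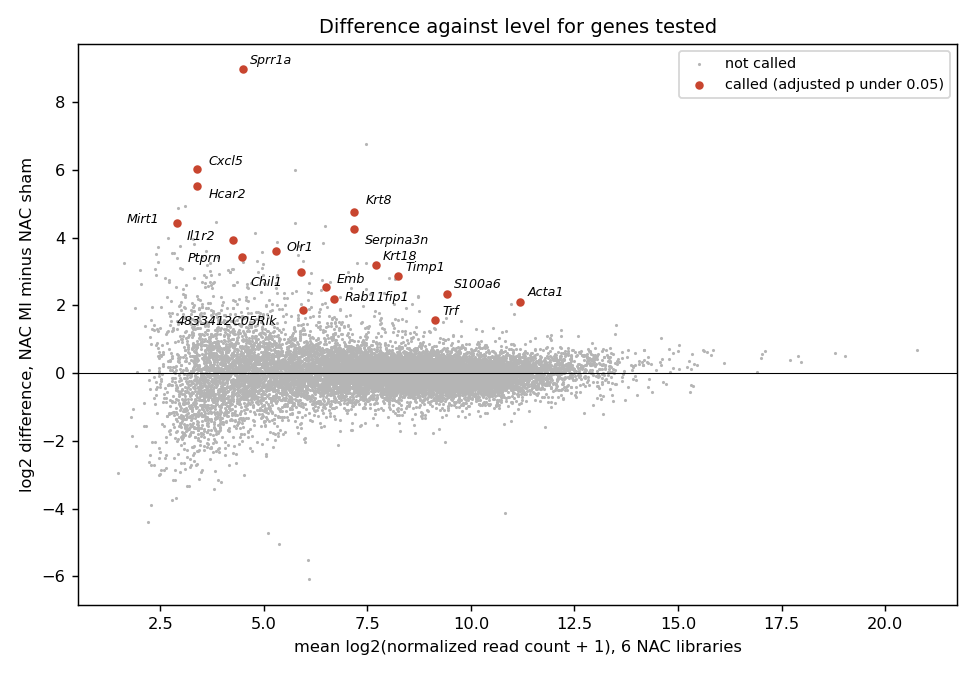
Difference against level. Each point is a gene tested, with its mean log2(normalized read count + 1) over the 6 NAC libraries on the x axis and its log2 difference, NAC MI minus NAC sham, on the y axis. The 18 called genes shown, in red and named, all lie above 0, from Trf (1.56) to Sprr1a (8.97). The 4 grey points below -4.5 are the Y-linked genes Ddx3y, Eif2s3y, Kdm5d and Uty.

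The count of called genes depended on the libraries. Without NAC sham 2 and NAC MI 2 together, 337 genes were called higher (2.25%) and 44 lower (0.293%), and all 19 were among them. Leaving out 1 NAC library at a time gave 8 calls without NAC sham 1, 67 without NAC sham 2, 10 without NAC sham 3, 32 without NAC MI 1, 33 without NAC MI 2 and 22 without NAC MI 3. Sprr1a, Acta1, Chil1, Krt8, Krt18, Ptprn and S100a6 stayed called in all 6 of these fits. Serpina3n was lost without NAC sham 1, Cxcl5 without NAC sham 3, and Emb without either of them. Trf, Hcar2 and 4833412C05Rik were lost without NAC sham 1, NAC sham 3 or NAC MI 3, and Timp1 without NAC sham 1, NAC sham 3 or NAC MI 1. Rab11fip1 was lost without NAC sham 1, NAC MI 2 or NAC MI 3. Olr1 and Mirt1 were lost without NAC sham 1, NAC sham 3, NAC MI 1 or NAC MI 2, and Il1r2 without NAC sham 1, NAC sham 3, NAC MI 1 or NAC MI 3. The adjusted p of these genes lay between 0.0501 and 0.184 where they were lost, and every difference kept its sign. When the 6 saline libraries were left out of the fit, so that the spread came from the NAC libraries alone, only Sprr1a was called (adjusted p = 0.00259 in limma).

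Of the genes known for cardiomyocyte stress, Sprr1a and Acta1 rose after MI. Sprr1a encodes a small proline-rich protein of the cornified envelope of skin that is also known as a stress-induced gene of cardiomyocytes (ENSMUSG00000050359, chr3:92483952-92485895, protein coding). It had 0 reads in each NAC sham library and values of 328, 681 and 562 in NAC MI 1, 2 and 3. It was thus off in every sham library and on in every MI library. Its highest value was in NAC MI 2, where the macrophage score was lowest and the epicardial and mesothelial score highest (10.5). Which cells made the Sprr1a transcripts was not tested. With 0 reads in sham and 1386 in MI, Sprr1a was at least 526-fold higher, taking a floor of 3 reads over the sham group, and its log2 difference was 8.97 (SE 0.544, adjusted p = 6.18e-06 in limma). The bound covers counting error only. The fitted difference of a gene at 0 depends on the pseudocount. Acta1, the skeletal muscle α-actin that is re-expressed in stressed heart muscle (ENSMUSG00000031972, chr8:123891769-123894751), was at 1374, 815 and 1278 in NAC sham and at 4516, 6610 and 3851 in NAC MI. The groups did not overlap, and NAC sham 2, the library poorest in cardiomyocyte transcripts, was the lowest. Acta1 rose 4.32-fold between the means, from 1156 ± 299 to 4992 ± 1440 (SD, n = 3, log2 difference 2.11, SE 0.276, adjusted p = 0.00791 in limma). Without both NAC sham 2 and NAC MI 2 the difference was 1.65. Acta1 is close in sequence to the cardiac actin Actc1, and how reads shared between them were counted is not given in the sources used here.

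The list of fetal and stress genes had 19 of 20 measured members higher, 1 called (Acta1) and a median log2 difference of 0.96, against a median of -0.0018 over all genes tested. Without both NAC sham 2 and NAC MI 2 the median was 0.47, 13 of 20 were higher and 1 was called. Natriuretic peptides, hormones that strained heart muscle secretes, were uneven between libraries. Nppb was at 897, 1060 and 1562 in NAC sham and at 3362, 7871 and 2172 in NAC MI. These values did not overlap, but Nppb did not pass (log2 difference 1.76, SE 0.431, adjusted p = 0.179 in limma). Nppa was at 106, 70.1 and 420.0 in NAC sham and at 806, 1790 and 332 in NAC MI, so that the groups overlapped and NAC MI 2 was far above the rest (adjusted p = 0.22 in limma). Ankrd1, a stretch-sensitive protein of the sarcomere and nucleus, was at 7008, 5482 and 9387 against 15660, 24937 and 17998. Its groups did not overlap and its adjusted p was 0.153 in limma. Without both NAC sham 2 and NAC MI 2 the log2 differences of Nppb and Ankrd1 were 1.19 and 1.05, in place of 1.76 and 1.43. Fhl1, a LIM-domain protein linked to hypertrophy, was at 3076, 2874 and 3545 against 5472, 6897 and 8079, and it came close to the threshold (log2 difference 1.09, SE 0.204, adjusted p = 0.0546 in limma). The myosin heavy chains did not share this pattern. Myh6, the adult α-chain, had means of 132692 ± 59978 and 130909 ± 49668, and Myh7, the fetal β-chain, was at 19098, 3363 and 18265 against 10002, 16977 and 8986. In both genes the groups overlapped and NAC sham 2 was the lowest of the 6 libraries.

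Among sarcomere genes 18 of 22 were higher, none was called and the median was 0.29. Without both NAC sham 2 and NAC MI 2 the median was -0.46 and 7 of 22 were higher, so the direction of this list turned. Calcium-handling genes had a median of -0.10, and of -0.69 without both libraries, where 2 were called lower. Small heat shock proteins that guard the sarcomere were higher without passing. Cryab was at 5813, 2250 and 5853 against 7738, 10897 and 8660, and Hspb1 at 2531, 1399 and 2536 against 4171, 5979 and 3130 (adjusted p = 0.371 and 0.324 in limma). For both, every MI library was above every sham library and NAC sham 2 was again lowest. Their log2 differences were 1.08 and 1.04, and 0.49 and 0.51 without both NAC sham 2 and NAC MI 2. In bulk samples such as these, fewer cells of a type and less RNA per cell cannot be told apart.

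**Figure D3:**
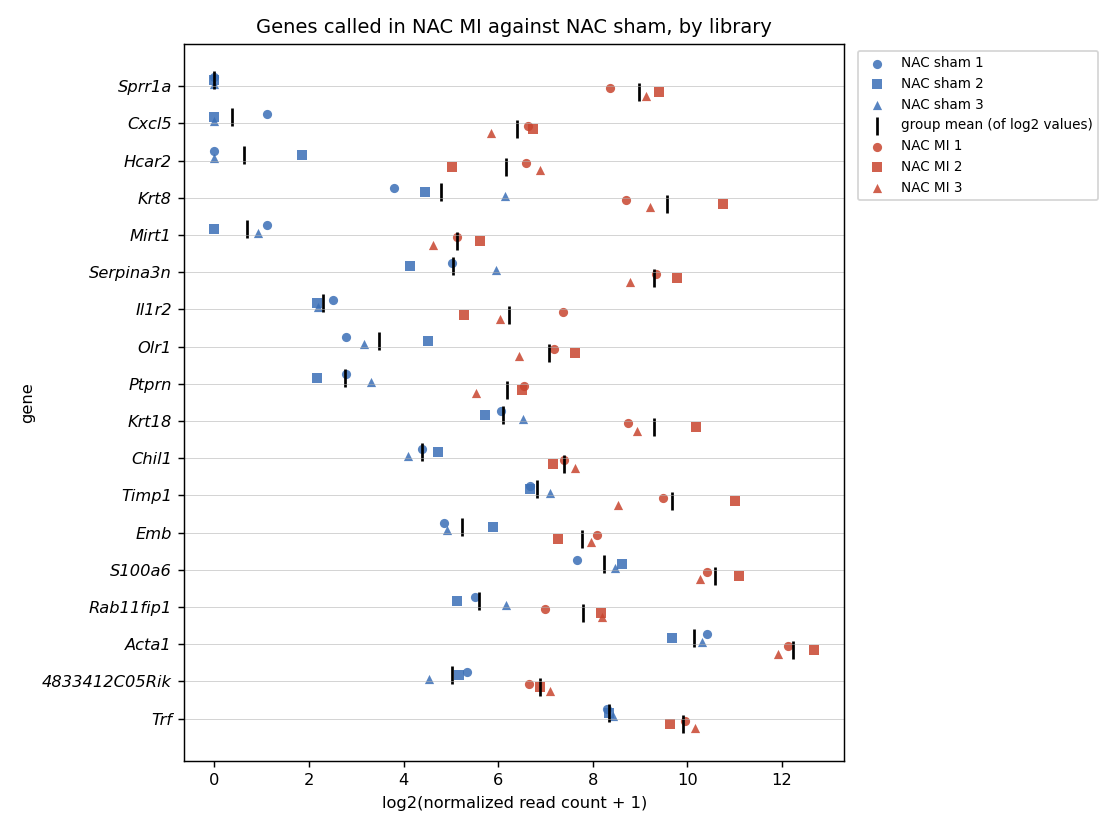
Called genes in each NAC library, 18 of the 19. The x axis is log2(normalized read count + 1), and each row is a gene, ordered by its difference. Blue points are NAC sham, red points NAC MI, with circles, squares and triangles for libraries 1, 2 and 3, and black ticks are the means of the log2 values. In every row the red points lie to the right of the blue ones. NAC MI 2 is the highest in 10 of the 18 genes shown.

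Of the keratin genes, Krt8 and Krt18 rose. These genes, which encode the keratin pair that forms filaments in simple epithelia and is also made by stressed cardiomyocytes, are 23.7 kilobases apart on chromosome 15 (Krt8, ENSMUSG00000049382, chr15:101996698-102004482; Krt18, ENSMUSG00000023043, chr15:102028180-102032027). Krt8 was at 12.9, 21.0 and 69.5 in NAC sham and at 419, 1742 and 596 in NAC MI. The groups did not overlap, and NAC MI 2 was the highest. Krt8 rose 26.7-fold between the means (log2 difference 4.77, SE 0.572, adjusted p = 0.00522 in limma). Krt18 was at 65.5, 51.7 and 91.8 against 429, 1172 and 490, and rose without overlap (log2 difference 3.19, SE 0.341, adjusted p = 0.00274 in limma). Both keratin genes have many processed copies in the genome, and how multiply mapped reads were counted is not given. An exon of Gm36026 overlaps Krt8 on the other strand.

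The list of keratins and epithelial plaque genes had 10 of 13 measured members higher, 2 called and a median of 1.52. Krt7, a simple-epithelium keratin, was at 30.4, 47.3 and 76.6 against 233, 1609 and 265 (adjusted p = 0.0546 in limma). Krt14, a keratin of basal epithelial cells, was at 8.19, 5.25 and 25.8 against 153, 898 and 112 (adjusted p = 0.0546 in limma), and Krt80 at 58.5, 67.4 and 82.0 against 176, 244 and 182 (adjusted p = 0.0535 in limma). Markers of the epicardium and mesothelium moved with these genes. Their score was 7.15, 7.39 and 8.33 in NAC sham and 8.36, 10.5 and 8.54 in NAC MI, all 14 markers were higher on average, none was called and their median was 1.38. Without both NAC sham 2 and NAC MI 2 the median was 0.46, 11 of 14 were higher and 3 were called. NAC MI 2 was the highest MI library for 14 of 14. Upk1b, a uroplakin of mesothelium, was at 76.0, 94.6 and 180 against 369, 2176 and 525, and Dmkn, a secreted epithelial protein, at 5.85, 11.4 and 12.5 against 67.6, 534 and 97.2 (adjusted p = 0.0649 and 0.0535 in limma). Their part in the keratin result was not tested. Without NAC MI 2, Krt8 and Krt18 were still called, with log2 differences of 4.17 and 2.74. Without both NAC sham 2 and NAC MI 2 the list median was 0.41 in place of 1.52, with 8 of 13 higher, and 5 in place of 2 were called.

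Secreted acute-phase proteins and a protease inhibitor rose. Serpina3n, an acute-phase serpin that blocks serine proteases (ENSMUSG00000021091, chr12:104406729-104414329), was at 31.6, 16.6 and 61.5 in NAC sham and at 647, 878 and 439 in NAC MI, a 17.9-fold rise of the mean (log2 difference 4.26, SE 0.617, adjusted p = 0.0136 in limma). The mouse genome holds a cluster of close relatives of this gene, which can share reads. Chil1, a chitinase-like glycoprotein of activated macrophages and stressed tissue (ENSMUSG00000064246, chr1:134182176-134190181), was at 19.9, 25.4 and 16 against 168, 143 and 196. Its libraries were close to each other within each group, with means of 20.4 ± 4.71 and 169 ± 26.4 (SD, n = 3, log2 difference 3.0, SE 0.331, adjusted p = 0.00274 in limma). NAC MI 2 was only slightly below the others in Chil1, unlike in the macrophage score.

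Timp1, an inhibitor of matrix metalloproteinases (ENSMUSG00000001131, chrX:20870166-20874735), was at 101, 102 and 136 in NAC sham and at 712, 2067 and 369 in NAC MI. The sham libraries were alike and the MI libraries spread over a wide range, with NAC MI 2 the highest (log2 difference 2.86, SE 0.481, adjusted p = 0.0383 in limma). It is the only gene of the 19 on the X chromosome, and none is on the Y. Without NAC MI 3, the MI pool with Y-linked reads, no Xist and the lowest Timp1 value, the adjusted p of Timp1 was 0.00558 in limma. The MI pools left in that fit had no Y-linked reads and the sham pools did, so it cannot separate sex from surgery. Trf encodes transferrin, the iron carrier of plasma (ENSMUSG00000032554, chr9:103204001-103230444). It was at 313, 322 and 345 against 997, 791 and 1145, a 2.99-fold rise with little spread in either group (log2 difference 1.56, SE 0.223, adjusted p = 0.0122 in limma). An exon of ENSMUSG00000090639 overlaps Trf on the same strand. In the list of acute-phase and complement genes all 15 measured members were higher, 3 were called (Serpina3n, Chil1 and Trf) and the median was 1.33. Without both NAC sham 2 and NAC MI 2 the median was 1.61 and 7 were called.

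Among inflammatory genes, the ligand Cxcl5 and the receptors Hcar2, Il1r2 and Olr1 rose. In the list of neutrophil chemokines and receptors 2 of 13 measured genes were called, Cxcl5 and Hcar2, of which Hcar2 is not a chemokine receptor. In the list of monocyte chemokines and receptors 0 of 17 were called, and in the interleukin-1 family 1 of 17. Without both libraries that stand apart these counts were 10, 10 and 5, a rise that leaving out libraries by macrophage markers favours. Cxcl5, a chemokine that draws neutrophils through Cxcr2 (ENSMUSG00000029371, chr5:90759360-90761624), was at 1.17, 0 and 0 in NAC sham and at 97.6, 106 and 56.5 in NAC MI. It was close to off in sham, with 1 read in all, and present in each MI library, NAC MI 2 included. The ratio of 238 reads to 1 was 271, with an exact 95% counting interval of 48.1 to 10740, and Cxcl5 passed with a log2 difference of 6.03 (SE 0.835, adjusted p = 0.0122 in limma). Without NAC sham 3 its adjusted p was 0.0519. Hcar2, a receptor for niacin and β-hydroxybutyrate found on neutrophils and macrophages (ENSMUSG00000045502, chr5:123863570-123865499), was at 0, 2.63 and 0 against 94.8, 31.6 and 116, with NAC MI 2 the lowest MI library. The ratio of its 229 reads to 3 was 86.8 (interval 29.3 to 424, adjusted p = 0.0122 in limma). Il1r2, a decoy receptor that captures interleukin-1 and is typical of neutrophils (ENSMUSG00000026073, chr1:40074079-40125231), was at 4.68, 3.50 and 3.56 against 164, 37.9 and 64.5. Its lowest MI library, NAC MI 2, was still above all sham libraries (log2 difference 3.94, SE 0.627, adjusted p = 0.0249 in limma). Olr1, a receptor for oxidized lipoproteins on endothelial cells and macrophages (ENSMUSG00000030162, chr6:129485244-129507165), was at 5.85, 21.9 and 8.02 against 144, 197 and 85.9. For Olr1 NAC MI 2 was the highest library (log2 difference 3.59, SE 0.561, adjusted p = 0.0215 in limma).

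Neutrophil markers were higher in 17 of 17 measured genes with 1 called (Il1r2) and a median of 2.25, and none of the 17 was at 0 in all NAC libraries. Their score was 5.08, 5.66 and 4.24 in NAC sham and 8.10, 5.15 and 7.71 in NAC MI, so that NAC MI 2 lay within the sham range. Cxcr2, the receptor for Cxcl5 on neutrophils, was at 11.7, 7.01 and 1.78 against 178, 35.4 and 235.2, and S100a9, a calcium-binding protein that neutrophils store, at 288, 176 and 142 against 1900, 297 and 1385. Neither passed (adjusted p = 0.176 and 0.324 in limma), and in both NAC MI 2 was the lowest MI library. Macrophage and monocyte markers were higher in 16 of 19 with none called and a median of 0.49. Ccr2, the receptor that brings monocytes into tissue, was at 8.19, 7.88 and 8.02 against 259, 20.2 and 220.0, a pattern that is even in sham and split in MI (adjusted p = 0.114 in limma). Without NAC sham 2 and NAC MI 2, 13 of the 19 macrophage markers and 11 of the 17 neutrophil markers were called higher, with medians of 2.45 and 3.33. The libraries left out were picked by macrophage markers, so these counts were favoured by that choice and are no separate support. The part of neutrophils and macrophages in the rise of Cxcl5, Hcar2, Il1r2 and Olr1 was not tested.

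Cytokine genes showed the same split. Il1b, the main interleukin-1 ligand, was at 7.02, 170 and 4.45 in NAC sham and at 622, 101 and 1001 in NAC MI, and Cxcl2, another neutrophil chemokine, at 9.36, 50.8 and 6.24 against 541, 48.0 and 353. In both the groups overlapped, because NAC sham 2 was above NAC MI 2 (adjusted p = 0.192 and 0.188 in limma). Without these 2 libraries Il1b had a log2 difference of 6.90 and an adjusted p of 0.000112 in limma. The choice of these libraries by macrophage markers favours such a rise. Spp1, the matricellular protein osteopontin made by macrophages at infarcts, was at 9.36, 165 and 1.78 against 5773, 230 and 4723. Its groups did not overlap, but NAC sham 2 and NAC MI 2 were close to each other (log2 difference 6.78, SE 1.30, adjusted p = 0.062 in limma). Osm, a gp130 cytokine of myeloid cells, was at 5.85, 2.63 and 2.67 against 56.3, 12.6 and 147, and Il6, which signals through the same receptor chain, at 4.68, 11.4 and 0.891 against 27.2, 34.1 and 35.1 (adjusted p = 0.167 and 0.207 in limma). Il6 was as high in NAC MI 2 as in the other MI libraries, and Osm was not. Of 18 measured genes of the gp130 axis 13 were higher, 1 (Sprr1a, listed there as a target) was called and the median was 0.45. Lifr, a receptor of this family, was lower, at 1247, 1042 and 1131 against 858, 704 and 694, without passing (adjusted p = 0.374 in limma).

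The other 6 called genes belong to no common group. S100a6, a calcium-binding protein of proliferating and injured cells (ENSMUSG00000001025, chr3:90612882-90624181), was at 201, 391 and 352 in NAC sham and at 1359, 2184 and 1231 in NAC MI (log2 difference 2.34, SE 0.292, adjusted p = 0.00647 in limma). Emb, a membrane glycoprotein that partners lactate transporters (ENSMUSG00000021728, chr13:117208536-117274415), was at 28.1, 58.7 and 29.4 against 271, 154 and 248 (log2 difference 2.55, adjusted p = 0.0122 in limma). Its pattern was that of the macrophage score, with NAC sham 2 the highest sham library and NAC MI 2 the lowest MI library, although the groups did not overlap. Ptprn, a phosphatase-like protein of secretory vesicles (ENSMUSG00000026204, chr1:75247027-75264502), was at 5.85, 3.50 and 8.91 against 92.9, 89.7 and 45.2 (log2 difference 3.44, adjusted p = 0.00711 in limma). Rab11fip1, an adaptor of recycling endosomes (ENSMUSG00000031488, chr8:27138773-27174646), was at 44.4, 34.2 and 71.3 against 126, 291 and 294 (log2 difference 2.19, adjusted p = 0.0343 in limma). Both were separated in all libraries, Rab11fip1 by the smaller margin. The noncoding RNA Mirt1, named for its link to myocardial infarction (ENSMUSG00000097636, chr19:53443230-53464796), had 2 reads in sham and 95 in MI, so that the reads differed 54.0-fold (95% interval 14.6 to 453) (adjusted p = 0.0214 in limma). The noncoding RNA 4833412C05Rik (ENSMUSG00000097697, chr7:67784538-67804139) was at 39.8, 35.0 and 22.3 against 100.4, 117 and 136 (log2 difference 1.86, adjusted p = 0.0214 in limma). Exons of other genes overlap Emb, Ptprn, Rab11fip1 and Mirt1 on the other strand, and with the strand setting of the counts not given such reads cannot be told apart.

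Among S100 proteins and annexins 16 of 18 were higher, 1 was called (S100a6) and the median was 0.67. Anxa8, an annexin of epithelia, was at 15.2, 13.1 and 31.2 against 83.5, 652 and 129 (adjusted p = 0.062 in limma), with NAC MI 2 the highest. Just past the threshold, 33 genes were higher and 5 lower at adjusted p values from 0.05 to 0.1. Beside those already named, the higher ones included Slc16a3, a lactate exporter, at 143, 243 and 160 against 974, 897 and 352, and Mmp19, a matrix protease, at 25.7, 43.8 and 63.2 against 210, 130 and 145 (adjusted p = 0.0535 and 0.0546 in limma). Named after their values were seen, Vat1l was at 0, 0 and 1.78 against 29.1, 51.8 and 43.0, and Apela, a peptide ligand of the apelin receptor, at 0, 4.38 and 1.78 against 16.9, 61.9 and 50.9 (adjusted p = 0.0517 and 0.0707 in limma). In each of these 4 genes all MI libraries were above all sham libraries.

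The 5 genes on the lower side of that band were Gpr20, Vtn, A730056A06Rik, Rgs5 and Reln, and Gpr20, A730056A06Rik and Reln were named after their values were seen. Gpr20, an orphan receptor, was at 24.6, 11.4 and 19.6 in NAC sham and at 0.938, 0 and 0 in NAC MI (adjusted p = 0.0517 in limma). A730056A06Rik, annotated as an antisense RNA, was the only gene with at least 10 reads in each sham library and 0 in all MI libraries, with 65 reads against 0, which is at least 19.0-fold lower (adjusted p = 0.0546 in limma). Vtn, the adhesive plasma and matrix protein vitronectin, was at 81.9, 89.3 and 66.8 against 14.1, 12.6 and 24.9 (log2 difference -2.19, SE 0.392, adjusted p = 0.0535 in limma). Reln, the secreted glycoprotein reelin, which lymphatic endothelium also makes, was at 315, 323 and 299 against 118, 109 and 153 (adjusted p = 0.0816 in limma). For these genes the lowest sham library was well above the highest MI library.

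Markers of mural cells, the pericytes and smooth muscle of vessels, were lower in 9 of 11 measured genes, with none called and a median of -0.56. Rgs5, a regulator of G-protein signals that marks pericytes, was at 5668, 8760 and 4609 in NAC sham and at 2967, 1311 and 2195 in NAC MI (log2 difference -1.58, SE 0.311, adjusted p = 0.0649 in limma). Notch3, a receptor that mural cells need, was at 2108, 2681 and 2291 against 1713, 937 and 948, and Myh11, smooth muscle myosin, at 1329, 1032 and 891 against 228, 438 and 392 (adjusted p = 0.121 and 0.274 in limma). No library of a group reached the other group in any of these 3. Cnn1, calponin of contractile smooth muscle and of activated fibroblasts, went the other way, at 212, 159 and 195 against 633, 1221 and 609 (log2 difference 2.05, adjusted p = 0.0546 in limma). The mural median was -0.27 without both libraries that stand apart.

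Endothelial markers were lower in 12 of 16 with none called and a median of -0.48. Without the same 2 libraries the median was -0.01. NAC sham 2 had the highest endothelial score of the NAC libraries (12.3) and NAC MI 2 the lowest (10.9), so leaving out both favours a smaller fall. After saline, where neither library enters the difference, the median was -0.49. Kdr, the main receptor for vascular endothelial growth factor, was at 8857, 17198 and 6796 against 6264, 1648 and 8845, with NAC sham 2 the highest and NAC MI 2 the lowest. The 8 lowest differences among separated genes that were not called, with a mean of at least 50 in NAC sham, were those of Ache, F2rl3, Susd5, Emid1, Vtn, Slc15a2, Pde4c and Pcdh17. Ache, acetylcholinesterase, was at 52.6, 102 and 50.8 against 28.2, 7.58 and 1.13, F2rl3, a thrombin receptor, at 83.0, 99.8 and 52.6 against 35.7, 2.53 and 20.4, and Pcdh17, an adhesion protein, at 1250, 2091 and 927 against 650, 117 and 467 (adjusted p = 0.165, 0.22 and 0.189 in limma). For F2rl3 and Pcdh17 NAC sham 2 was the highest and NAC MI 2 the lowest library. The other 5 had log2 differences from -2.31 (Susd5) to -2.03 (Pde4c).

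Genes of the antioxidant defence that NAC feeds into were slightly higher after MI and none passed. In the list of glutathione and NRF2 target genes 32 of 34 measured members were higher, 0 were called and the median was 0.44. Without both libraries that stand apart 3 were called and the median was 0.36. Gclc, the catalytic subunit of the enzyme that limits glutathione synthesis, was at 296, 478 and 293 in NAC sham and at 469, 279 and 598 in NAC MI. Slc7a11, the cystine importer, was at 21.1, 42.9 and 12.5 against 78.8, 18.9 and 48.6, and Nqo1, a quinone reductase, at 178, 86.7 and 175 against 138, 152 and 189. The groups overlapped in all 3. Txnrd1, thioredoxin reductase, overlapped too, at 1181, 1573 and 1106 against 1596, 1440 and 1653 (adjusted p = 0.595 in limma). Gsr, which regenerates reduced glutathione, did not overlap, at 558, 614 and 525 against 826, 832 and 846 (log2 difference 0.56, SE 0.159, adjusted p = 0.239 in limma). Mt1, a metallothionein, was at 991, 735 and 917 against 1636, 1752 and 1693, and Akr1b8, an aldo-keto reductase, at 71.3, 124 and 137 against 275, 630 and 332 (adjusted p = 0.223 and 0.0895 in limma). The MI libraries were close to each other for Gsr and Mt1. Hmox1, heme oxygenase, was at 234, 1798 and 136 against 1175, 210 and 806, which follows the macrophage score. Without both libraries, which were picked by macrophage markers, its log2 difference was 2.44 (adjusted p = 0.00103 in limma).

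Of the oxidant-producing enzymes 9 of 15 were higher, none was called and the median was 0.86. Without both libraries that stand apart 10 of 15 were higher, 8 were called higher and 0 lower, and the median was 2.36. Nos3, the endothelial nitric oxide synthase, was at 1012, 1320 and 839 against 647, 448 and 640, Nos2, the inducible form, at 354, 450 and 292 against 206, 48.0 and 188, and Nox4, a constitutive NADPH oxidase, at 109, 222 and 116 against 60.1, 30.3 and 99.5 (adjusted p = 0.165, 0.24 and 0.333 in limma). All 3 were separated downward, with differences of -0.86, -1.54 and -1.30, and of -0.52, -0.71 and -0.53 without both libraries. Ptgs2, the inducible cyclooxygenase, was higher, at 1.17, 28.0 and 16 against 93.8, 49.3 and 185 (adjusted p = 0.205 in limma). Amino-acid synthesis genes of the integrated stress response were among 18 of 20 members of that list that were higher, with none called. Phgdh, the first enzyme of serine synthesis, was at 142, 129 and 192 against 319, 585 and 285 (adjusted p = 0.141 in limma). Gdf15, a stress hormone, was at 35.1, 80.6 and 37.4 against 35.7, 112 and 30.5 and overlapped between the groups.

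Glycolysis genes were higher in 25 of 26 with none called and a median of 0.46. In 13 of the 26 every MI library was above every sham library, as in 9.08% of all genes tested. Without both libraries that stand apart 18 of 26 were higher, 4 were called higher and 1 lower, and the median was 0.36. Pgam1, phosphoglycerate mutase, was at 887, 998 and 814 in NAC sham and at 1603, 1533 and 1445 in NAC MI, a tight pattern that just missed the threshold (log2 difference 0.77, SE 0.152, adjusted p = 0.0688 in limma). Pgk1 was at 6720, 5221 and 6334 against 9547, 9968 and 8770, and Eno1, the enolase of most tissues, at 4930, 5455 and 4594 against 8148, 8627 and 6617 (adjusted p = 0.277 and 0.236 in limma). Bnip3, a mitophagy receptor of the hypoxia response, was at 367, 201 and 279 against 560.2, 525 and 759 (adjusted p = 0.117 in limma). The hypoxia list had 17 of 23 members higher and a median of 0.30. Nuclear genes of the respiratory chain had a median of 0.25 with 29 of 31 higher, and of -0.22 without both libraries that stand apart. Fatty acid oxidation genes had medians of 0.01 and -0.48 in these fits. Ribosomal protein genes, a sign of RNA composition as much as of growth, were higher in 42 of 42, with a median of 0.49 in both fits and none called. In 35 of the 42 every MI library was above every sham library, against 9.08% of all genes tested.

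**Figure D4:**
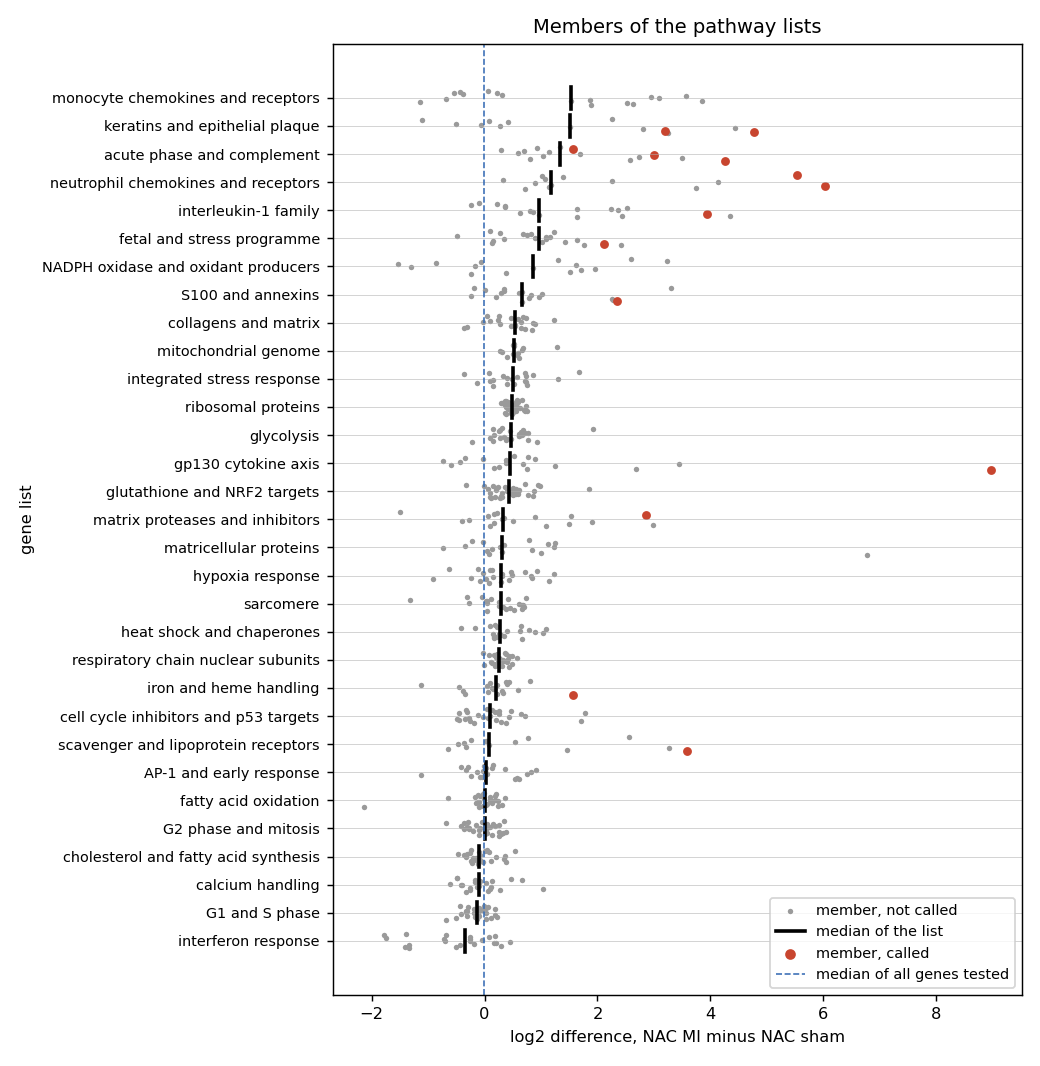
Members of the pathway lists. Each row is 1 of 31 lists, ordered by its median, each grey point is a member's log2 difference, NAC MI minus NAC sham, and red points are called members. Black bars are list medians and the dashed line the median of all genes tested (-0.0018). Most of the red points lie in the lists of the upper rows, and the cell cycle lists sit close to the dashed line.

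Cell cycle genes, which are read for cardiomyocyte renewal at this age, showed small differences. The median was 0.01 over 31 genes of G2 phase and mitosis, with 16 higher and 15 lower. Over 30 genes of G1 and S phase it was -0.13, with 8 higher and 22 lower, and none was called in either list. Which cells of these bulk libraries made the transcripts was not tested. Mki67, a marker of cycling cells, was at 2872, 4078 and 3843 in NAC sham and at 3044, 2725 and 2295 in NAC MI. Ccnb1, the mitotic cyclin, was at 765, 1050 and 706 against 915, 946 and 1117, and Cdk1, its kinase, at 1126, 1208 and 1040 against 1141, 1008 and 1253. The groups overlapped in all 3, and the log2 difference of Cdk1 was 0.01 (SE 0.178). The cell cycle inhibitor Cdkn1a was at 491, 1407 and 445 against 1018, 748 and 905, with NAC sham 2 the highest. Mcm4, a subunit of the replication helicase, was at 1256, 1513 and 1226 against 846, 1041 and 1121 and did not overlap, without passing (adjusted p = 0.487 in limma).

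Matrix genes were moderately higher. Among collagens and matrix genes 19 of 22 were higher with none called and a median of 0.54. Cthrc1, a secreted protein of activated fibroblasts, was at 256, 382 and 364 in NAC sham and at 938, 736 and 691 in NAC MI (log2 difference 1.25, SE 0.259, adjusted p = 0.0915 in limma). Its groups did not overlap. Fibroblast markers were higher in 15 of 16 with a median of 0.57 and none called, and their part in the matrix genes was not tested. Interferon response genes were lower in 16 of 22 with a median of -0.35, but NAC sham 2 was the highest sham library for 21 of 22, and without both libraries the median was 0.49. Usp18, an interferon-induced protease, was at 32.7, 223 and 35.6 against 15.0, 20.2 and 20.4.

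Most of the called genes had also changed after saline. Of the 19, 17 (89.5%) were called higher in saline MI against saline sham, where 128 genes were called higher (0.854% of genes tested), so that the shared 17 are 13.3% of those. The exceptions were Olr1 and 4833412C05Rik, which were higher after saline without passing (log2 difference 1.58 and 1.14, adjusted p = 0.278 and 0.0985 in limma). In all 19 every saline MI library was above every saline sham library. The comparisons share no library, but in the fit they share the estimate of the spread. The median log2 difference of the 19 was 3.44 after NAC and 3.16 after saline, and 14 were larger and 5 smaller after NAC, the group in which they were chosen. Sprr1a differed by 8.97 after NAC and by 8.12 after saline, and Krt8 by 4.77 and 3.18. Il1r2 differed by 3.94 and 5.71, and Trf by 1.56 and 2.07. The test of the difference itself, the interaction of NAC and MI, called 0 of 14996 genes (0%) in limma, with 305 at an unadjusted p under 0.05 and a smallest adjusted p of 0.9999. It called 0 in edgeR, 1 in DESeq2, and 4 in limma without NAC MI 3. With the title prefix as a term, an alternative chosen after the data were seen, limma called 17 genes, 13 with a smaller and 4 with a larger MI difference after NAC, and 0 of the 19 were among them. In that fit (5 residual degrees of freedom) the sham side compares NAC sham 2 alone, the library with the high macrophage score, with saline sham 1 and 2. Among the 19, 1 had an unadjusted interaction p under 0.05 in limma, beside 305 of the 14996 genes tested. Olr1 went from 18.8 ± 13.1 to 51.3 ± 10.4 after saline, a log2 difference of 1.58 against 3.59 after NAC (difference 2.01, SE 0.793, unadjusted p = 0.0246 in limma).

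**Figure D5:**
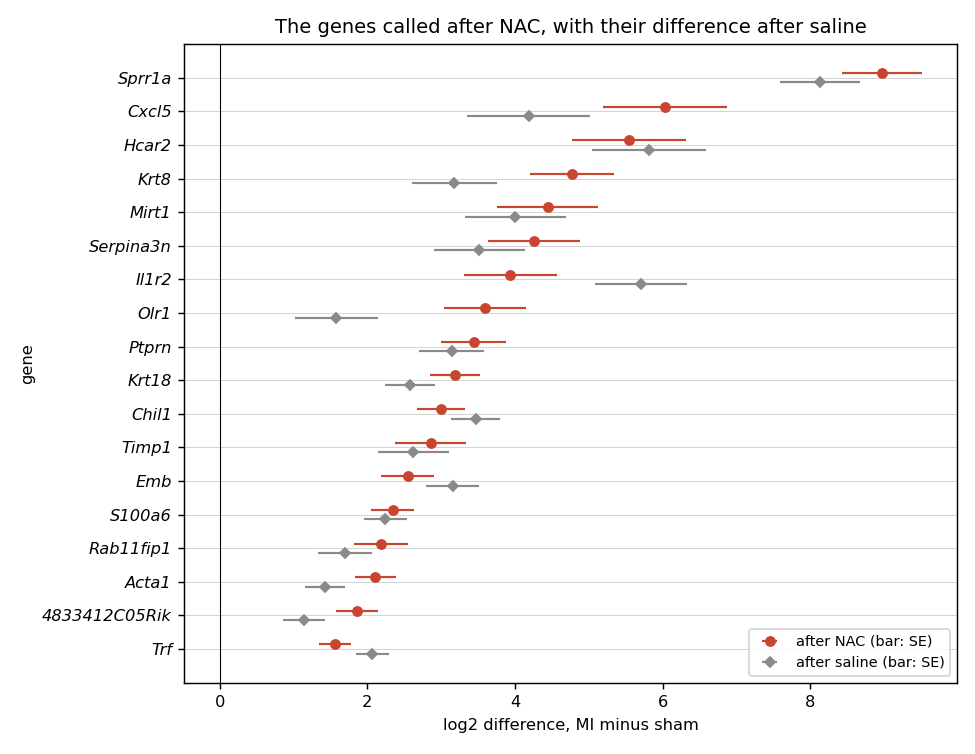
Genes called after NAC, 18 of the 19, with their difference after saline. The x axis is the log2 difference, MI minus sham, red circles for NAC and grey diamonds for saline, with bars of 1 standard error from the fit, 3 libraries a group. All 18 lie above 0 in both, and the widest gaps are those of Olr1 (3.59 and 1.58), Cxcl5 (6.03 and 4.19), Il1r2 (3.94 and 5.71) and Krt8 (4.77 and 3.18), none of which passed the test of the difference.

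No gene passed the test of the difference without a prefix term, and the genes given here are those the rule picks for small unadjusted interaction p values or names in advance. Those with a larger MI difference after NAC included Mtfr2, a mitochondrial fission regulator, and Ckap2, a mitotic spindle protein, at 0.58 and 0.05 after NAC and -1.16 and -0.66 after saline (unadjusted p = 0.0025 and 0.00976 in limma). The mitotic genes Ccnb1 and Cdk1 had differences of 0.26 and 0.01 after NAC and of -0.66 and -0.57 after saline (adjusted p = 0.9999 for both in limma, with unadjusted values of 0.00999 and 0.0378). The list of G2 phase and mitosis had a median of 0.01 after NAC and of -0.58 after saline. Other lists had wider gaps between these medians. Those of neutrophil chemokines and receptors were 1.17 and 4.67, and those of macrophage and monocyte markers 0.49 and 3.25. Epicardial and mesothelial markers, larger after NAC, had medians of 1.38 and 0.61. No list was tested for the interaction. Those with a smaller difference after NAC included Csf3r, the G-CSF receptor of neutrophils, at 2.25 after NAC and 6.67 after saline (unadjusted p = 0.00366). In the NAC libraries Csf3r followed the white blood cell markers, at 35.1, 160 and 24.1 in NAC sham and 562, 56.8 and 484 in NAC MI. Sorl1, a sorting receptor, was at 230, 197 and 235.2 against 607, 342 and 483, a difference of 1.07 after NAC and 2.48 after saline (unadjusted p = 0.00106), and Pnpla7, a lysophospholipase, at -0.01 and 1.57 (unadjusted p = 0.000619). With adjustment over all genes each of these had an adjusted p of 0.9999 in limma.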

How the data were processed

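Polyadenylated RNA from selected neonatal cardiomyocytes was sequenced in 12 libraries, 3 in each of 4 groups. Alignment software STAR 2.7.10a, the build mm10 and the package DESeq2 1.44.0 are listed in the submitters' processing notes. The counter, annotation release and strand setting are not given in the sources used here. The deposited values are a normalized signal: reads per gene that the authors divided by a size factor per library. Whole reads were recovered from them, with 100% of values within 0.01 of a whole read. Of 52336 genes, 52027 matched the annotation, and the 14996 with a mean of at least 10 over all 12 libraries were tested.

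One limma 3.58.1 model (R 4.3.3, trended prior) was fitted to log2(value + 1) with a mean for each group and 8 residual degrees of freedom, so the saline libraries share in the estimate of the spread. A fold change on this scale understates the change of low genes. The Benjamini-Hochberg adjustment ran over all genes tested, with a threshold of 0.05. edgeR 4.0.16 and DESeq2 1.42.0 on the recovered reads, other pseudocounts, filters, scalings and weights, left-out libraries and, for the interaction, a title prefix term were alternatives. Scripts were tested on simulated data.

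The comparison, its gene lists (31 of pathways, 11 of cell type markers) and its tests were chosen with earlier results of these data known. Named genes are all called genes, the 8 largest separated falls that were not called, in every list the members with the smallest unadjusted p (at most 5), the 5 smallest interaction p values each way, and a set of fixed genes. Others are marked where they appear, and 1 of the called genes and 1 list member are not reported here. Nothing in the labels says that libraries came from separate litters, so the p-values reflect only how these libraries vary, and that variation may be technical. Ratios of reads have exact 95% intervals, and where a group had 0 reads a floor of 3 reads over the group was used. Both cover counting error only. Promoter sequences come from RefSeq (GRCm38.p6), and gene coordinates are GRCm38 (mm10).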

Additional observations from a re-analysis of the deposited data

How the results depend on the processing

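None of the 19 called genes changed sign under any alternative run. Against 19 genes called after NAC, pseudocount 4 gave 43, a filter at a mean of 50 gave 10, the 6 NAC libraries alone gave 1, DESeq2 gave 241, a constant prior variance gave 30, library quality weights gave 806, and leaving out both NAC sham 2 and NAC MI 2 gave 381. Leaving out 1 of the 12 libraries gave 8 (NAC sham 1) to 67 (NAC sham 2), with 34 without saline sham 3 and 12 without saline MI 1 or saline MI 2. A pseudocount of 0.5, TMM scaling, no filter and edgeR stayed within 1.5 times. All 19 were among the calls of edgeR, DESeq2, the quality weights and the fit without both libraries. Il1r2 was lost with a pseudocount of 0.5 and without the filter, Mirt1 without the filter, Olr1, Rab11fip1 and Timp1 with the filter at 50, and Timp1 with a constant prior variance (adjusted p 0.0544 to 0.0895 in limma). Leaving out 1 saline MI library ended 6 or 7 of the 19 calls, and saline sham 1 or saline sham 2 ended 2. For the interaction, a title prefix term, chosen after seeing the data, gave 17, DESeq2 called 1 gene and limma without NAC MI 3 called 4, and the other left-out libraries gave 0. After saline, 129 genes were called, with 463 in DESeq2, 79 with a constant prior variance, 2915 with quality weights, 607 without both libraries, and 15 to 326 with 1 library left out. The causes were not tested. No paired analysis was possible because the labels give the groups no shared replicate numbers. Depth limits genes near 0 reads, such as Cxcl5 and Mirt1 in sham.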
